A study of Capra hircus with 6 samples.

Results

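Back-splice hub sites, single splice positions that several different circular RNAs (circRNAs) share as one of their ends, were described in ovarian follicles of goats. All circRNAs listed in 6 libraries were pooled, and each was defined by its chromosome, start, end and strand. A start or an end used by 5 or more distinct circRNAs was called a hub, and the opposite ends of its circRNAs were called its partners. This gave 43 hubs and 232 hub circRNAs among 13950 circRNAs (1.66%). The choice used positions only, and no read count beyond the listing of a circRNA in at least 1 library.

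In ordinary splicing a donor site at the end of an exon is joined to an acceptor site further downstream. In back-splicing the donor is joined to an acceptor upstream of it, and the exons and introns between them close into a circle. One donor can be joined to several upstream acceptors and one acceptor to several downstream donors, which is known as alternative back-splicing. Such choices give families of circles that share one end and differ in length and content. Complementary repeats in the flanking introns and RNA-binding proteins are known to favour particular pairs of sites.

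Pre-ovulatory follicles came from 3 Boer and 3 Macheng black goats (Capra hircus), with 1 library per animal. Every animal had been given 1000 IU of PMSG (pregnant mare serum gonadotropin, which drives follicle growth) and 500 IU of hCG (human chorionic gonadotropin, which acts like the luteinising hormone surge). The labels give no age and no animal without hormones, so the breeds are compared under stimulation only. Total RNA isolated with TRIzol was depleted of ribosomal RNA, and no step that enriches circular molecules is named.

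The values are reads across the back-splice junction, so each count belongs to 1 junction whatever the length of the circle. Libraries held between 23480 and 74796 such reads, Boer 1 being the deepest and Macheng black 3 the shallowest. No circRNA was listed with under 2 reads, so a circRNA given here with 0 reads had 0 or 1, or was not found. Positions are counted from 1, and the genome build is not given in the sources used here. Strands are those of the files, so the naming of a site as donor or acceptor rests on them.

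The hubs were divided almost evenly between the sides. On the start side 22 positions were hubs (14 on the plus strand and 8 on the minus strand), and on the end side 21 (12 and 9). Read by strand, 23 hubs were acceptors and 20 were donors, and they lay on 20 chromosomes. Of 11551 distinct starts, 9708 belonged to 1 circRNA, 1422 to 2, 318 to 3 and 81 to 4. Of 11616 distinct ends, 9817 belonged to 1 circRNA, 1394 to 2, 304 to 3 and 80 to 4. Hubs were therefore the upper tail of a distribution with no visible break at the threshold. The 161 sites with 4 circRNAs, just outside the threshold, had a median of 84 pooled reads, and the 30 sites with 5 circRNAs had a median of 167.5.

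Most hubs stood close to that threshold. The number of partners was 5 in 30 hubs, 6 in 9, 7 in 3 and 8 in 1. The hub with 8 partners was the acceptor at chromosome 29, end 539799 on the minus strand, in MED17, a subunit of the Mediator complex that links transcription factors to RNA polymerase II. One circRNA joined a hub to a hub: it ran from the start hub at 74614217 to the end hub at 74663061 on chromosome 14, plus strand, and its 21 pooled reads were the most of either site. Of the 233 partner positions, 78 (33.5%) were also used by another circRNA. For comparison, 29.4% of the ends of circRNAs outside the hubs were shared.

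**Figure D1:**
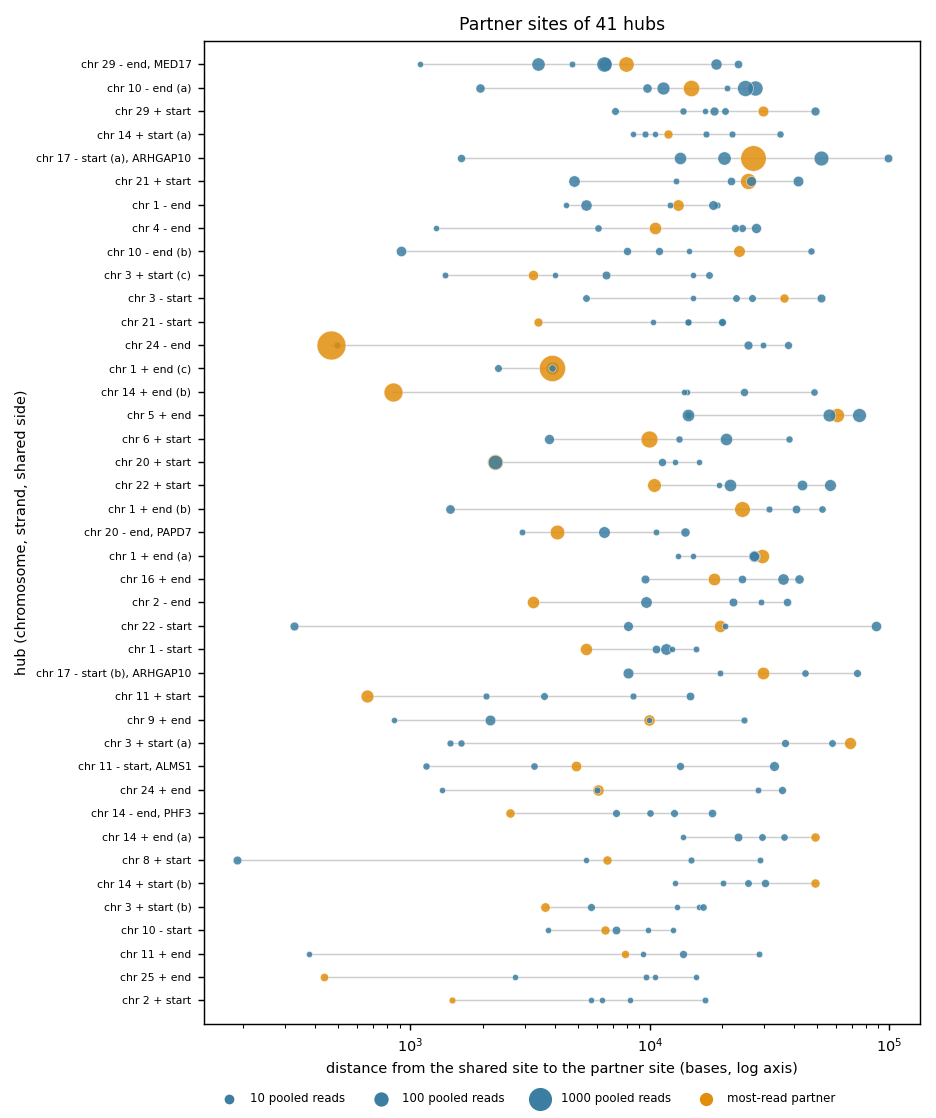
Distance from the shared site to each partner site (bases, log axis) for 41 of the 43 hubs, sorted by number of partners and labelled by chromosome, strand, shared side and host gene. Point area grows with reads pooled over 6 libraries, and orange marks the most-read partner, which in most hubs is neither the nearest nor the farthest one.

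Few hubs could be tied to a gene. A usable host gene was available for 8 hubs in 7 genes, with 45 hub circRNAs (19.4%). The hosts described here are MED17, ARHGAP10 (a GTPase-activating protein, with 2 hubs), PAPD7 (a non-canonical poly(A) polymerase), ALMS1 (a centrosome and basal body protein) and PHF3 (a PHD finger protein). Of lists drawn up for this tissue, the list of known circRNA hosts of other mammals had 7 usable host genes in these files, of which 1, ARHGAP10, held a hub. No hub host was on the lists for TGF-beta and BMP signalling (5 usable hosts), steroid and sterol handling (3), extracellular matrix and integrins (3), the ubiquitin and SUMO pathway (3) or chromatin enzymes (5). Granulosa markers had 1 usable host and no hub, and the markers of theca, endothelium, leukocytes and smooth muscle had none, so the labelled tissue could not be checked from host genes.

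The files also list the exon and intron parts of each circRNA. In the hosted hubs the shared position coincided with the border of a listed exon in 5 of 8, among them those of ALMS1, PHF3, MED17 and the ARHGAP10 site at 9988192. In the ARHGAP10 hub at 10078703 and the PAPD7 hub, stretches of 95 and 124 bases with no listed exon or intron lay between the site and the first listed part. Among the 45 partner ends, 14 stood at the border of a listed part and 3 inside one. The remaining 28 lay beyond the last listed part by 16 to 312 bases (median 127.5). This is a description of the deposited annotation, and whether those stretches are exons that it lacks was not tested. Letters of the splice sites are not shown, since no genome of the files' build was used.

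Hub circRNAs were few but more read than most. They made up 17435 of 252857 pooled reads (6.90%), with a median of 10.5 pooled reads per circRNA against 3 in the others. Listing takes at least 2 reads, so the choice of hubs by listed circRNAs is not independent of reads. How much of this excess comes from that choice was not tested, and it is not read as a trait of hub circRNAs. Start hubs held 5990 reads and end hubs 11466, the circRNA that joins 2 hubs counting on both sides. Reads were concentrated: a hub had between 13 and 3573 pooled reads (median 159), 15 hubs had under 100, and the 3 most-read hubs held 49.8% of hub reads.

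Within a hub, the reads went mainly to a few partners. The most-read partner held a median of 50.3% of the hub's pooled reads (quartiles 42.6% and 65.9%, range 30.1% to 99.0%), over 50% in 22 hubs and over 90% in 3. The second partner held a median of 24.9%. The effective number of partners, the inverse of the summed squared shares, had a median of 2.65 and ran from 1.02 to 4.57. The median share of the leading partner was 48.8% in start hubs and 52.2% in end hubs, and 48.8% at acceptors and 51.3% at donors.

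**Figure D2:**
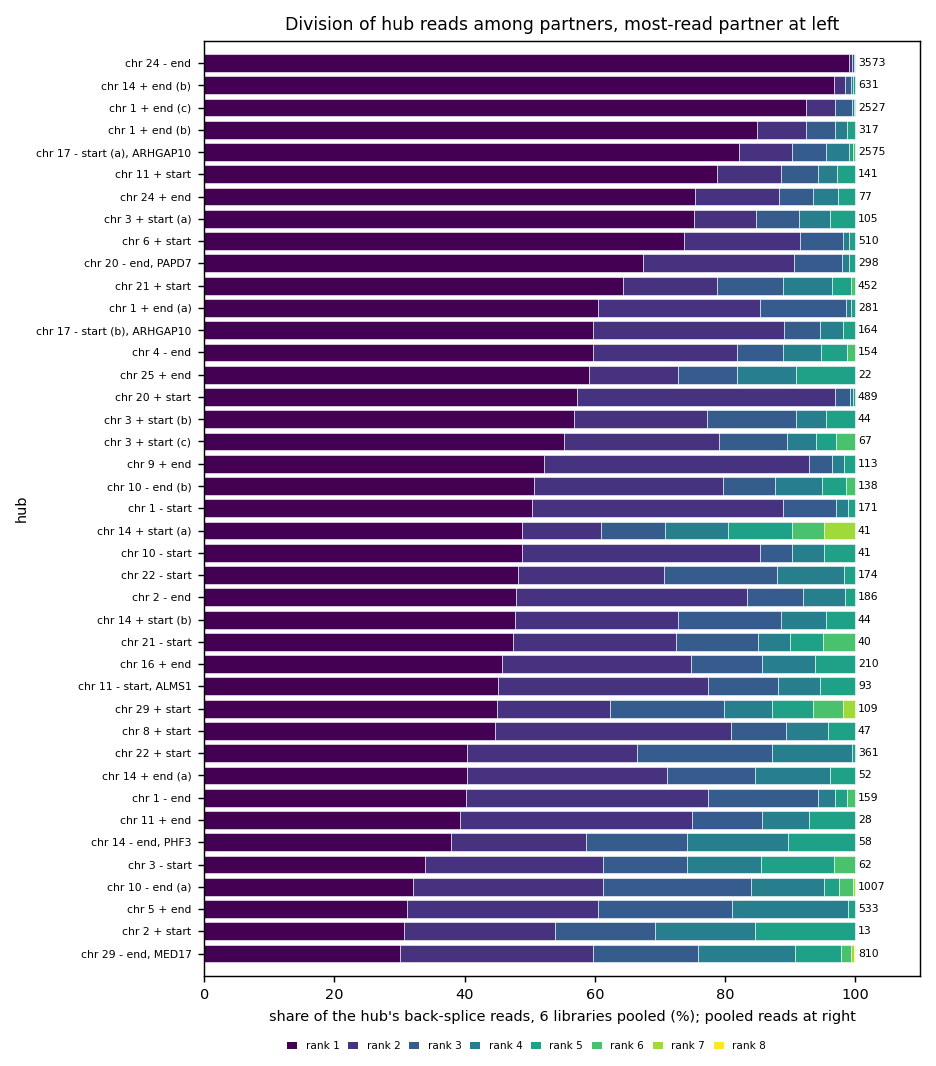
Share of the back-splice reads of 41 hubs (%, 6 libraries pooled) that went to each partner, with partners ranked by reads from left to right and the hub's pooled reads at the right margin. The leading partner took 99.0% in the hub at the top and 30.1% in the MED17 hub at the bottom.

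At the concentrated extreme, 1 partner took nearly everything. The acceptor at chromosome 24, end 40208323, minus strand, had 3573 pooled reads, the most of any hub, and 99.0% came from a circle of 464 bases that starts at 40207860. That circRNA had 1087, 452 and 460 reads in Boer 1, 2 and 3 and 397, 796 and 345 in Macheng black 1, 2 and 3. Its 4 other partners had 19 or fewer reads each, and 3 of them spanned between 25685 and 37764 bases. The donor at chromosome 14, end 75878366, plus strand, had the same form: 610 of its 631 reads (96.7%) came from a circle of 847 bases, with 194, 45 and 91 reads in Boer and 83, 158 and 39 in Macheng black. Its 4 other partners had 11 or fewer reads each and spanned between 13886 and 48600 bases. In the chromosome 24 hub the remaining partner was another short circle, of 495 bases with 4 reads, which starts 31 bases from the leader, and with these counted as 1 that site had 4 partners.

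The third hub with a leader over 90% was the donor at chromosome 1, end 146136588, plus strand. Its leading partner, at 146132688, had 925, 153 and 355 reads in Boer and 253, 478 and 172 in Macheng black, 92.4% of the hub. Another 3 partners, at 146132664, 146132676 and 146132704, lay 12 or 16 bases from their neighbour, and together with the leader they left a single partner elsewhere. Neighbouring partners were present in other hubs as well: 13 pairs in 10 hubs were 50 bases or less apart, from 2 to 31 bases. Counted as 1 partner per such group, a choice made after the data were seen, 34 hubs kept 5 or more partners and 9 did not. Whether neighbours are distinct splice sites or alternative placements of 1 junction was not tested.

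The start hub on chromosome 20, plus strand, at 6779251 shows what such neighbours can hold. Its partners at 6781507 and 6781512, 5 bases apart, took 57.3% and 39.7% of 489 reads. The nearer one had 118, 18 and 65 reads in Boer and 24, 36 and 19 in Macheng black. The farther one had 73, 35 and 15 in Boer and 24, 28 and 19 in Macheng black. Boer 2 favoured the farther and Boer 1, Boer 3 and Macheng black 2 the nearer, and in Macheng black 1 and 3 the counts were equal, so libraries of the same breed went opposite ways.

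Some hubs with a usable host had a clear leader. In ARHGAP10 the donor at chromosome 17, start 9988192, minus strand, had 2575 reads, and 82.1% belonged to the circle that ends at 10015046. In PAPD7 (chromosome 20, end 65861612, minus strand) the partner at 65857506 held 67.4% of 298 reads, with 73, 17 and 45 reads in Boer and 21, 26 and 19 in Macheng black.

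In other hosted hubs the reads were spread. In the MED17 hub the partners at 531840 and 533364 took 30.1% and 29.6% of 810 reads. The first had 81, 30 and 32 reads in Boer and 39, 34 and 28 in Macheng black, and the second 79, 24 and 26 in Boer and 26, 49 and 36 in Macheng black. Partners at 536388, 533333 and 520898 took 130, 121 and 57 reads, and all 5 of these circles were listed in every library. The site at 533333 lies 31 bases from that at 533364, and with these counted as 1 the hub still had 7 partners.

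The least-read hosted hubs were ALMS1 (chromosome 11, start 10771393, minus strand, 93 reads), whose leader at 10776319 held 45.2%, and PHF3 (chromosome 14, end 10461526, minus strand, 58 reads), whose leader at 10458921 held 37.9%.

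Hubs without a usable host also ranged from concentrated to even. The start hub at 56464467 on chromosome 6, plus strand (510 reads), gave 73.7% to the partner at 56474404. The start hub at 58310075 on chromosome 21, plus strand (452 reads), gave 64.4% to 58335775, and the end hub at 61359779 on chromosome 4, minus strand (154 reads), gave 59.7% to 61349249. In contrast, the donor at chromosome 5, end 62708355, plus strand (533 reads), had 4 partners with 31.1%, 29.3%, 20.6% and 17.8%. The acceptor at chromosome 10, end 10866577, minus strand, with 7 partners and 1007 reads, had 3 partners with 32.1%, 29.2% and 22.6%. The 2 start hubs with 7 partners were thinly read: that at 26917849 on chromosome 14, plus strand, had 41 reads, and 6 of its partners were each listed in 1 library only, while that at 8668565 on chromosome 29, plus strand, had 109.

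Hub circRNAs spanned long stretches of genome. Their span, the distance between the joined sites, had a median of 13705 bases (quartiles 6234.5 and 23721) against 5739.5 in the other circRNAs. In Boer 1, 2 and 3 the median span of listed hub circRNAs was 13898, 11643 and 12726 bases, against 6772, 5908 and 6522 in the others. In Macheng black 1, 2 and 3 it was 11876, 12771 and 11341 bases, against 6043, 6380 and 5492.5. The excess averaged 6190 ± 523 bases (SD, n = 6 libraries). It was positive in 6 of 6 libraries, which list many of the same circRNAs. A hub was chosen for having several distinct partners, which all lie on the same side of it. Such partners must lie at different distances, so part of the excess can come from that choice. How large that part is was not tested, and the excess is not read as a trait of hub circRNAs. Within a hub the longest circle was a median of 9.56 times as long as the shortest (range 1.69 to 271).

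The leading partner was the nearest one in 13 hubs, the farthest in 4 and between them in 26. The 13 hubs are 30.2% of 43 (exact 95% interval 17.2% to 46.1%, counting error only), where an equal chance for each partner would give 8.05 hubs (18.7%). At sites with 2, 3 and 4 circRNAs the nearest partner led in 50.2%, 33.3% and 28.6%. These values lie close to the equal chance, which is the inverse of the number of circRNAs at the site. With hubs of at least 6 circRNAs the share was 15.4%, and among circRNAs with at least 5 pooled reads it was 13.3%.

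A hub was seldom complete in 1 animal. Of the 232 hub circRNAs, 84 (36.2%) were listed in 1 library and 52 (22.4%) in all 6, against 59.7% and 7.87% of the other circRNAs. The choice of hubs by listings bears on this comparison too. Of the 84, 40 were listed only in Boer 1, the deepest library, and between 4 and 13 only in each of the others. At least 1 partner was listed in every library in 34 hubs, yet 5 or more partners within 1 library were reached in only 15 hubs. Boer 1 alone reached that number in 13 hubs and Macheng black 3, the shallowest, in 2. Without Boer 1 the same rule gave 14 start hubs, 11 end hubs and 132 hub circRNAs, so the number of hubs moved with that library.

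The share of reads on hub circRNAs was compared between breeds with 1 value per library. It was 8.24%, 7.32% and 6.86% in Boer 1, 2 and 3 and 4.86%, 6.82% and 5.78% in Macheng black 1, 2 and 3. The means were 7.47% ± 0.70 and 5.82% ± 0.98 (SD, n = 3 each), and the lowest Boer value lay just above the highest Macheng black value. Their exact 95% intervals, which cover counting error only and not the spread between animals, were 6.62% to 7.10% and 6.60% to 7.05%. Hubs were chosen by circRNAs listed in these same libraries, most often in Boer 1, so sites that became hubs through Boer listings lean to Boer by construction. With hubs counted again without Boer 1, the difference in means was 0.985 percentage points. In bulk follicles, fewer cells of a type and less RNA per cell cannot be told apart.

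A large part of that difference lay in 1 gene. The 2 hubs of ARHGAP10 alone held 1.68%, 1.35% and 1.33% of the reads in Boer and 0.341%, 0.684% and 0.515% in Macheng black. Without them, a choice made after the data were seen, the share was 6.55%, 5.97% and 5.53% in Boer and 4.52%, 6.14% and 5.26% in Macheng black, and the breeds overlapped. The difference in means fell from 1.65 to 0.707 percentage points. A locus without hubs on chromosome 23 (24338001 to 24405648, minus strand) took 15.2% of the reads of Macheng black 1, the library with the lowest hub share. With that locus out of the totals, also a later choice, the difference was 1.44 points.

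**Figure D3:**
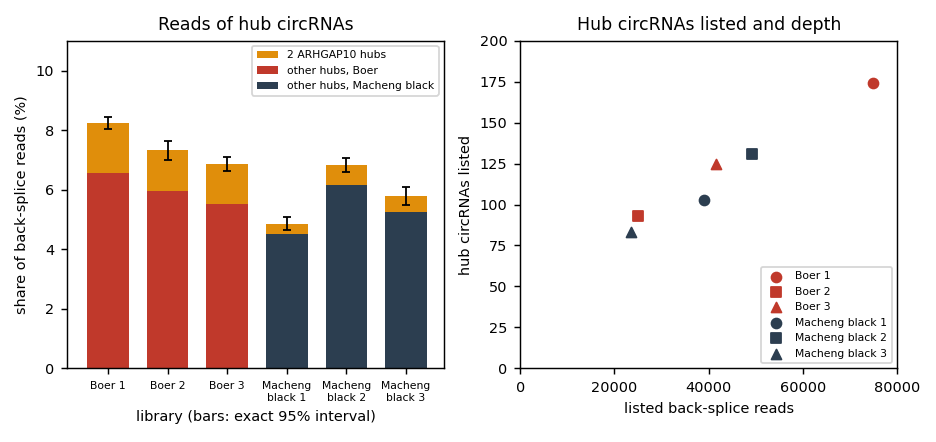
Left, share of each library's back-splice reads on hub circRNAs (%), with the 2 ARHGAP10 hubs in orange on top and exact 95% intervals of the whole share. Right, number of hub circRNAs listed against the library's listed back-splice reads: the counts ran from 83 in Macheng black 3 to 174 in Boer 1, the shallowest and the deepest library.

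The number of hub circRNAs showed no such separation. They were 2.48%, 2.63% and 2.42% of the circRNAs listed in Boer 1, 2 and 3 and 2.34%, 2.42% and 2.48% of those in Macheng black 1, 2 and 3, and the ranges overlapped. The back-splice share of a circRNA, its junction reads as a percent of its junction and non-junction reads, had lower medians in hub circRNAs in all 6 libraries. It was 1.35%, 1.27% and 1.44% in Boer, against 2.70%, 1.78% and 2.04% in the other circRNAs. In Macheng black it was 1.24%, 1.27% and 0.917%, against 2.10%, 2.22% and 1.72%. Hub circRNAs also had longer spans and a shared site, and whether these bear on the back-splice share was not tested.

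Whether single hub circRNAs differed between breeds was tested with edgeR's quasi-likelihood test on the 3712 circRNAs that reached 2 reads in 3 or more libraries. Of the 232 hub circRNAs 112 were tested, and 3 had an adjusted p under 0.05, all higher in Boer. Of all circRNAs tested, 0.35% were called (0.108% as higher in Boer and 0.242% as higher in Macheng black). An unadjusted p under 0.05 was reached by 16 of the 112 (5.23% of all tested). All 3 belonged to 2 hubs, on chromosome 16 and in ARHGAP10. The median log2 fold change of Boer over Macheng black was 0.45 in the tested hub circRNAs, against 0.11 in all tested circRNAs. In the hub circRNAs 81 were positive and 31 negative, and 54.6% of all tested circRNAs were positive. These counts and medians are a description from which no lean of hubs to Boer is read, since Boer 1 listings chose many of the hubs. CircRNAs of 1 hub also share an end.

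The hub on chromosome 16 is a donor at end 57822288, plus strand, with 5 partners and no usable host. Its longer called circle, from 57786278 (36011 bases), had 40, 7 and 14 reads in Boer and was listed in no Macheng black library. Counting 1 read in each Macheng black library (3 reads over the group), it was 13.5-fold higher in Boer. This is not a lower bound if the circle was present there but not found. On the listed counts the edgeR adjusted p was 0.00261. Its most-read circle, from 57803816 (18473 bases), had 52, 11 and 23 reads in Boer and 2, 5 and 3 in Macheng black. That is 573 ± 216 against 93.1 ± 32.4 CPM (SD, n = 3 each; reads scaled to a common library size), with a log2 fold change of 2.62 ± 0.58 (SE, edgeR adjusted p = 0.0194). In both, each Boer library was above each Macheng black library.

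Summed over its 5 partners, the chromosome 16 hub had 115, 22 and 47 reads in Boer and 5, 18 and 3 in Macheng black. In CPM the sum was 1198 ± 473 for the Boer libraries against 214 ± 150 for Macheng black, again without overlap (SD, n = 3 each). Its log2 fold change was 2.41 ± 0.47 (SE), with an adjusted p of 0.00202 by edgeR. It was called among 21 end hubs tested, where 0.519% of 3465 end sites were called and 0.173% were called as higher in Boer. The circle from 57786278, listed in Boer only, is 1 of just 5 partners. Without it the site would not be a hub, so the calls of this hub and circle are not independent of the choice of hubs. The call of the sum was lost without Boer 1 (edgeR adjusted p = 0.246 with the tested set held fixed), without Macheng black 2 or Macheng black 3 when the filter was applied again (0.0791 and 0.134), with at least 5 reads in 3 libraries (0.0729), and with DESeq2 (0.0574). It was also lost without Boer 1 when the filter was applied again (0.138) and without Macheng black 3 with the tested set held fixed (0.0725). Of the single circles, that from 57786278 was lost with at least 5 reads in 3 libraries (edgeR adjusted p = 0.0682) and without Boer 1, Boer 2 or Macheng black 2 in at least 1 version (up to 0.315), and that from 57803816 passed in 7 of 17 alternatives.

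The ARHGAP10 hub at 10078703 is a donor on chromosome 17, minus strand, with 5 partners. Its summed reads were 90, 24 and 36 in Boer and 4, 7 and 3 in Macheng black, so every Boer library was far above every Macheng black library. In CPM the sum was 1008 ± 293 for the Boer libraries against 127 ± 22.0 for Macheng black, a ratio of 7.95 (SD, n = 3 each). Its log2 fold change was 2.95 ± 0.49 (SE), with an adjusted p of 7.33e-05 by edgeR. It was the only call among 22 start hubs, where 0.519% of 3470 start sites were called and 0.173% as higher in Boer. This call passed in 17 of 17 alternatives, with edgeR or DESeq2 adjusted p between 2.17e-05 and 0.0339. Of this hub's 5 partners, 3 were listed in Boer 1 only, so the site became a hub through that library. Each alternative kept the site as chosen, so none of them tests that choice.

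Its leading circle, which ends at 10108351, had 46, 16 and 28 reads in Boer and 4, 4 and 0 in Macheng black, with no overlap. This single circRNA was also called (edgeR adjusted p = 0.00581), though not without Boer 1 (0.14), Boer 2 (0.111, tested set held fixed), Macheng black 2 (0.154) or Macheng black 3 (0.0607), nor with at least 5 reads in 3 libraries (0.0682) or with DESeq2 (0.0756). The second circle, to 10086829, had 26, 8 and 8 reads in Boer and 0, 3 and 3 in Macheng black and did not pass (edgeR adjusted p = 0.741). The other 3 partners were listed in Boer 1 only. The position 10086829 is also a partner of the second ARHGAP10 hub.

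That hub, at 9988192, had 1170, 312 and 517 reads in Boer and 129, 329 and 118 in Macheng black. In CPM the breeds did not overlap (13479 ± 3516 against 5115 ± 1832, SD, n = 3 each), but the sum did not pass (log2 fold change 1.40 ± 0.47, SE; adjusted p 0.372 by edgeR and 0.012 by DESeq2). Its circles to 10040261 and 10008564 were the next by p after the called ones, with edgeR adjusted p of 0.0652 and 0.242. The first had 108, 23 and 43 reads in Boer and 10, 17 and 10 in Macheng black, and the second 49, 17 and 40 in Boer and 4, 15 and 8 in Macheng black.

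**Figure D4:**
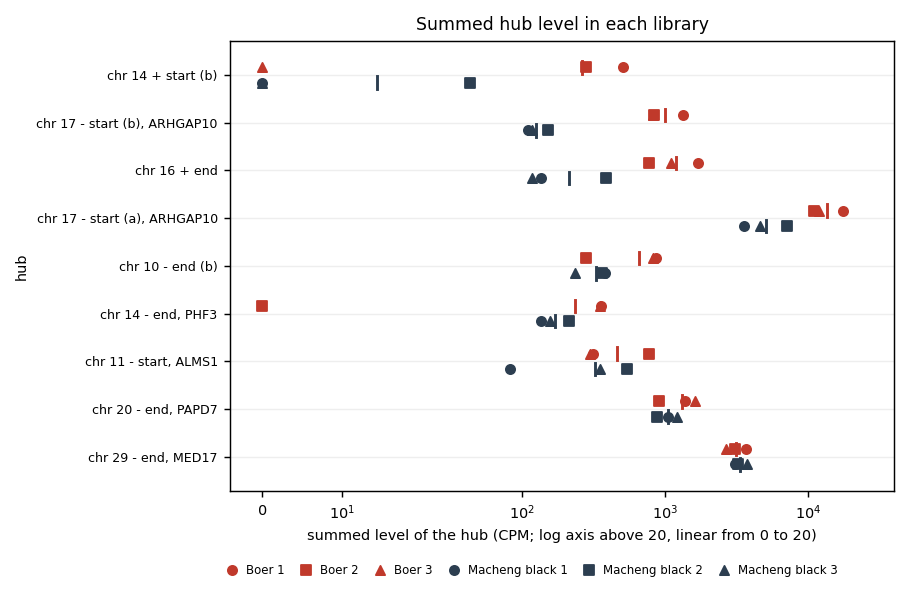
Summed level of a hub in each library (CPM, log axis above 20 and linear below) for 6 hubs with a usable host and the 5 with the smallest p for summed reads. Points are libraries, short vertical bars are breed means, and (a) and (b) tell apart hubs with the same label: the Boer points lie right of the Macheng black points in both ARHGAP10 hubs and the chromosome 16 hub and mix in MED17 and PAPD7.

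Outside the alternatives no other hub passed. An unadjusted p under 0.05 was reached by 3 of 22 start hubs (5.48% of all start sites) and 2 of 21 end hubs (5.83% of all end sites). The start hub at 74614217 on chromosome 14 had 34, 8 and 0 reads in Boer and 0, 2 and 0 in Macheng black (edgeR adjusted p = 0.333). Its sum passed in 1 of 13 alternatives. The end hub at 18561987 on chromosome 10, minus strand, had 58, 8 and 35 reads in Boer and 14, 17 and 6 in Macheng black (edgeR adjusted p = 0.812). In CPM the 2 breeds overlapped in both hubs. The MED17 sum was 248, 88 and 114 reads in Boer and 113, 152 and 95 in Macheng black, with a log2 fold change of -0.09 ± 0.40 (SE). Among start hubs 19 of 22 log2 fold changes were positive (54.2% of all start sites), with a median of 0.54 against 0.10 in all start sites. Among end hubs 15 of 21 were positive (55.0% of all end sites), with a median of 0.29 against 0.10. These signs are in part fixed by the choice of hubs through Boer listings, and nothing is read from them.

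The breeds separated in some hubs, the called ones included. In summed CPM all 3 Boer libraries were above all 3 Macheng black libraries in 6 of 22 start hubs (7.06% of all start sites tested), and the reverse was seen in none (5.04%). Among end hubs these counts were 1 (7.01%) and 3 (4.62%) of 21. The 6 start hubs include the called ARHGAP10 hub, and the 1 end hub above in Boer is the called chromosome 16 hub. For single hub circRNAs the counts were 18 (6.92% of all tested), with the 3 called ones among them, and 6 (4.8%) of 112. The choice of hubs through Boer listings bears on these counts too, and with 22 and 21 hubs a share moves by several points with 1 hub.

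Among the hub circRNAs lower in Boer with the smallest p, none passed. Those of the chromosome 10 hub at 10866577, from 10841495 and 10839093, had 62, 20 and 34 and 38, 23 and 34 reads in Boer, against 43, 98 and 37 and 38, 54 and 41 in Macheng black (edgeR adjusted p = 0.880 and 0.909). The circle of chromosome 22, plus strand, 36661941 to 36718428, had an edgeR adjusted p of 0.907, with 20, 6 and 0 reads in Boer and 24, 16 and 9 in Macheng black. The longest-spanning leader of any hub, chromosome 3, plus strand, 49540297 to 49609055, had 14, 9 and 8 reads in Boer and 18, 10 and 20 in Macheng black and an edgeR adjusted p of 0.9998.

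Presence and absence gave 3 hub circRNAs listed in every Boer library and in no Macheng black library (1.29% of hub circRNAs, against 0.459% of all circRNAs). Besides the chromosome 16 circle they were chromosome 11, plus strand, 79801107 to 79815752, with 7, 3 and 4 reads in Boer, and chromosome 10, minus strand, 18551067 to 18561987, with 5, 3 and 2. Neither was called, with edgeR adjusted p of 0.880 and 0.887. The reverse pattern occurred in no hub circRNA, against 35 (0.251%) of all circRNAs. Hubs were chosen by listings in these same libraries, most often in Boer 1. Such counts therefore lean to Boer by construction, and nothing is read from them.

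Whether a hub changes its partners between breeds was tested with edgeR's diffSpliceDGE, which asks if the circRNAs of 1 site change in different proportion. None of the 17 start hubs and 16 end hubs with at least 2 tested partners passed, and no site passed among all 395 start sites (0%) and 363 end sites (0%). At an unadjusted p under 0.05 there were 0 of 17 start hubs (1.52% of all start sites) and 1 of 16 end hubs (1.38% of all end sites). With the other scaling, the replicate block and the other filters the counts also stayed at 0. In simulated data of this size the test recovered 0% of 4-fold and 20.8% of 16-fold changes at start sites. At end sites it recovered 3.23% and 38.9%. Most changes of both sizes were missed, so the lack of calls is not read as equal partner use. These shares are over all sites, and recovery at hubs alone was not tested.

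The end hub below that unadjusted threshold was the chromosome 16 donor (unadjusted p = 0.0148, adjusted p = 0.9998 by edgeR's test across all end sites). Its circle from 57786278, unlisted in Macheng black, took 34.8%, 31.8% and 29.8% of the hub's reads in Boer. Among start hubs the smallest p for partner use belonged to 79801107 on chromosome 11 (unadjusted p = 0.0907), 36661941 on chromosome 22 (0.140) and 9966412 on chromosome 1 (0.279), each with an adjusted p of 0.9996 by edgeR. The hub at 79801107 gave 78.7% of 141 reads to a circle of 660 bases, with 34, 19 and 18 reads in Boer and 19, 8 and 13 in Macheng black. The fourth and the fifth were 39391348 on chromosome 10, with 41 reads in all, and 6779251 on chromosome 20.

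The share of the leading partner separated the breeds in 5 of 20 hubs with at least 10 reads in every library, a count added after the data were seen. In Boer it was higher in 1 of 8 start hubs (2.34% of 171 such start sites) and 2 of 12 end hubs (4.76% of 168 such end sites). In Macheng black it was higher in 1 of 8 start hubs (5.26%) and 1 of 12 end hubs (3.57%). The widest separation was in the start hub at 9966412 on chromosome 1, minus strand: its partner at 9971827 took 63.6%, 57.1% and 64.5% in Boer and 36.4%, 26.9% and 43.8% in Macheng black, on 16 to 44 reads per library. Its partner at 9978054 had 11, 9 and 5 reads in Boer and 18, 16 and 7 in Macheng black.

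The other 4 separations were narrow. In the PAPD7 hub the leader took 78.5%, 65.4% and 65.2% in Boer and 55.3%, 63.4% and 61.3% in Macheng black. In the chromosome 10 hub at 10866577 it took 35.2%, 32.2% and 41.8% in Boer and 23.9%, 29.1% and 29.7% in Macheng black. The leader of the end hub at 43455628 on chromosome 1, minus strand, took 32.0%, 31.6% and 44.4% in Boer and 48.0%, 46.2% and 50% in Macheng black. In the chromosome 6 hub at 56464467 it took 71.5%, 69.0% and 74.6% in Boer and 75%, 78.9% and 75.7% in Macheng black. None of these hubs passed the test of partner use.

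Between libraries, the leading partner stayed the same in some hubs and changed in others. Over 146 pairs of a hub and a library with at least 20 reads, the partner that led in the pooled reads also led in 120 (82.2%), tied in 7 and was behind another in 19. The pooled leader is defined from these same libraries, so part of this count is fixed by construction. In 15 hubs with at least 20 reads in every library, the same partner led in all 6 libraries in 9 (60%). The exact 95% interval, 32.3% to 83.7%, covers counting error over hubs only and not the spread between animals. The 6 hubs whose leader changed included that of MED17 and those at 62708355 on chromosome 5, 10866577 on chromosome 10, 6779251 on chromosome 20 and 36661941 on chromosome 22. In these 6 the pooled leader held between 30.1% and 57.3% of the reads, and in the 9 others between 60.5% and 99.0%.

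The partner shares of a hub varied between libraries of the same breed as well as between breeds, counting error included. The distance between 2 libraries, the summed absolute differences of the partner shares of a hub divided by 2, averaged 15.2% over 9 pairs across breeds and 14.9% over 6 pairs within a breed, in the 15 well-read hubs. The difference of 0.310 points moved with single libraries in both directions. It was -0.225 without Boer 1 and -0.797 without Boer 3, but 0.674 without Boer 2 and 0.626, 0.788 and 2.04 without Macheng black 1, 2 and 3. With at least 10 reads in every library in place of 20 it was 2.09 points. By hub, the mean distance over all 15 pairs of libraries was 1.09% in the chromosome 24 hub, 4.70% in the ARHGAP10 hub at 9988192 and 30.2% in the chromosome 5 hub. These hubs had 347, 118 and 21 reads in their least-read library. Counting error was not separated from differences between animals. In the chromosome 5 hub the partner at 62633420 had 38, 35 and 15 reads in Boer and 19, 49 and 0 in Macheng black, leading in Boer 2, Macheng black 1 and Macheng black 2.

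**Figure D5:**
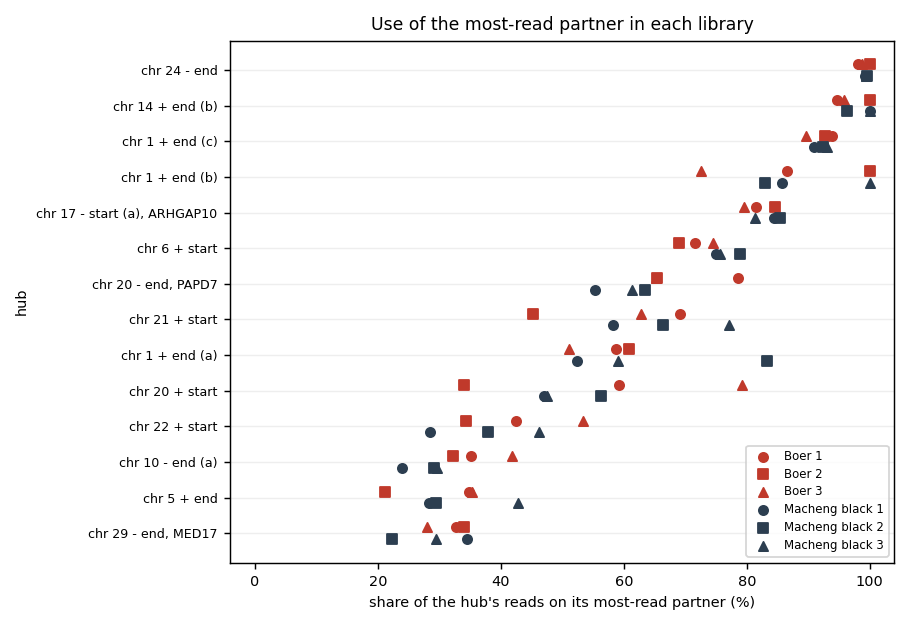
Share of a hub's reads on its most-read partner (%) in each library, for 14 of the 15 hubs with at least 20 reads in every library, Boer above and Macheng black below each line. Points of the 2 breeds mix in most hubs, stay between 98.0% and 100% in the chromosome 24 hub and spread from 34.0% to 79.3% in the chromosome 20 start hub.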

How the data were processed

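Back-splice junction reads and non-junction reads were deposited by the authors as raw whole-number counts per circRNA, 1 file per library, with spliced and full lengths in bases, per the file headers. The submitters' processing notes name Bowtie2 2.0.6 and TopHat2. Which program called the circRNAs, with which thresholds, genome build and annotation, is not given in the sources used here, and these choices decide which back-splices are found. Full length was end minus start in each of the 28870 entries, so starts were counted from 0 and 1 was added. The breed and animal number were taken from the sample titles.

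CircRNAs were matched by chromosome, start, end and strand. Host genes were used only where the identifier lay on 1 chromosome and had no listed part over 1 Mb: 784 genes remained, 755 with a symbol from RefSeq's gene table of assembly ARS1.2 (names only), covering 14.7% of circRNAs.

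Breeds were compared with edgeR 4.0.16 in R 4.3.3 (quasi-likelihood test, TMM scaling, library size of all listed back-splice reads, at least 2 reads in at least 3 libraries, Benjamini-Hochberg adjustment at 0.05 over all features tested). The fits were made on circRNAs, on sums per start site and on sums per end site; partner use was tested with diffSpliceDGE (Simes p per site). CPM are scaled to the effective library size, and 1 read was worth 15.5 to 38.1 CPM, which is the smallest step a level can show. SE were obtained from each fold change with its F statistic. For circRNAs edgeR estimated a biological coefficient of variation of 0.602. In simulated counts, 17% of 4-fold and 52% of 16-fold changes of circRNAs were recovered, with 5 false calls among 74; for sums per start site the shares were 26% and 59%, and per end site 21% and 57%. Exact 95% intervals of shares are Clopper-Pearson intervals from scipy 1.17.1 in Python 3.11.15. Quantities formed over the hub circRNAs as a set (read share, span, partner distance) are given as descriptions without a p-value.

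The members, gene lists and tests were chosen with earlier results of these data known. The hubs named are the 10 with the most partners, the 10 with the most pooled reads, those with a usable host, the 5 with the smallest p for summed reads, the 5 start and 5 end hubs with the smallest p for partner use and any past adjusted p 0.05. The hub circRNAs named are those past adjusted p 0.05, the 5 with the smallest p in each direction and the leaders of named hubs; others were chosen after their values were seen. Of these, 2 hubs and their host genes are counted in the totals but not reported here. Alternatives were DESeq2 1.42.0, its size factors in edgeR, other filters, other hub thresholds, a replicate block, thinning to 23480 reads (20 draws) and leaving out each library.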

Additional observations from a re-analysis of the deposited data

How the results depend on the processing

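The number of hubs depended on the threshold and on rarely read circRNAs. With at least 4 circRNAs per site there were 103 start hubs, 101 end hubs and 846 hub circRNAs, with at least 6 there were 8, 5 and 83, and with at least 8 there were 0, 1 and 8. Keeping only circRNAs with at least 5 pooled reads left 7, 8 and 79, and only those listed in at least 2 libraries 6, 7 and 67. Leaving out 1 library in turn gave 14 to 20, 11 to 20 and 132 to 216, lowest without Boer 1. Counting partners within 50 bases as 1, an alternative added after the data were seen, left 20 start and 14 end hubs.

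The median share of the leading partner was 55.4% with at least 4 circRNAs per site, 30.1% with at least 8, 45.7% among circRNAs with at least 5 pooled reads and 45.2% among those in at least 2 libraries. The nearest partner led in 15.4% of hubs with at least 6 circRNAs, 0% with at least 8, 13.3% with at least 5 pooled reads and 15.4% in at least 2 libraries. The excess of span was 6782, 7606.5 and 559 bases with at least 4, 6 and 8 circRNAs, 7351 with at least 5 pooled reads and 9974 in at least 2 libraries. Without Boer 1, 2 or 3 it was 7026, 7350 and 7762.5 bases, and without Macheng black 3 it was 7113. The lowest value without 1 library was 5864. The excess was positive in each of these settings. Each of them chose hubs by their number of partners, so none tests how far that choice sets the span. The same partner led in every library in 0% of hubs with at least 8 circRNAs, of which there is 1.

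The breed difference in hub read share was 2.57 points with at least 4 circRNAs per site, -0.0146 with at least 8, 0.707 without the ARHGAP10 hubs, and 0.985 to 2.04 without 1 library. That in the share of distinct circRNAs (0.101 points) was 0.332 after thinning, -0.0224 and -0.00811 with at least 6 and 8 circRNAs per site, -0.00858 in at least 2 libraries, and 0.0141 to 0.133 without 1 library. The partner distance across minus within breeds was -2.09 with at least 8 circRNAs per site and -0.797 to 2.04 without 1 library; it was negative without Boer 1 (-0.225) and Boer 3 (-0.797).

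The 3 called hub circRNAs became 0 with at least 5 reads in 3 libraries and 0 at thresholds of 6 and 8 circRNAs per site, and 0 to 4 without 1 library. The 2 called sums became 1 with at least 5 reads, 5, 0 and 0 at thresholds of 4, 6 and 8, and 1 to 3 without 1 library. Partner use gave 0 calls in each of these settings that was run. With a replicate block there were 3 called circRNAs, 2 called sums and 0 calls of partner use. The numbers do not pair the animals: same-numbered libraries of the 2 breeds correlated at -0.033, -0.039 and 0.012, and of the pairs only number 3 correlated best with its own number. Of the 43 hubs, 15 had under 100 pooled reads. The causes of these changes were not tested. A stricter threshold also leaves fewer features to be called.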

Other observations

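Several hubs joined very short and very long circles at 1 site, chosen here after their values were seen. At the start hub at 84767377 on chromosome 8, plus strand, a circle of 188 bases had 8, 4 and 0 reads in Boer and 3, 2 and 0 in Macheng black, and one of 6624 bases had 6, 5 and 0 in Boer and 2, 8 and 0 in Macheng black. At the start hub at 36512904 on chromosome 22, minus strand, circles of 325 and 88172 bases shared the site, a ratio of 271. The short one had 6, 0 and 4 reads in Boer and 0, 8 and 0 in Macheng black. The long one had 17, 0 and 10 reads in Boer and 0, 12 and 0 in Macheng black, so both were listed in the same 3 libraries, which are the 3 deepest. The leader of that site, of 19575 bases, was listed in all 6, with 35, 10 and 10 reads in Boer and 13, 14 and 2 in Macheng black.

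The end hub at 32495753 on chromosome 24, plus strand, listed its leader from 32489692 with 9, 0 and 11 reads in Boer and 13, 16 and 9 in Macheng black. In Boer 2 the whole hub was unlisted, although this library listed 40 of the 43 hubs. In CPM all 3 Macheng black libraries lay above all 3 Boer libraries for its sum (417 ± 57.6 against 185 ± 162, SD, n = 3 each; edgeR adjusted p = 0.999).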
